A study of Mus musculus with 7 samples.

Results

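The SOX transcription factors were followed in nuclei of cultured BB-p53n OPCs through 10 genes, which were chosen by symbol and are 10 of the 33696 genes of the matrix. *Sox2* and *Sox3* belong to SoxB, *Sox4* and *Sox11* to SoxC, *Sox5*, *Sox6* and *Sox13* to SoxD, and *Sox8*, *Sox9* and *Sox10* to SoxE. *Sox1* and *Sox21* of SoxB and *Sox12* of SoxC are not among the 10, and a share within a group is taken over its chosen members unless these genes are named. BB-p53n OPCs are primary mouse oligodendrocyte progenitor cells (OPCs), taken from brains of early postnatal *Trp53fl/fl* C57BL/6 pups of either sex by an antibody to CD140a, the receptor PDGFRα. A PDGFB-IRES-CRE retrovirus was used both to delete *Trp53* and to make the cells overexpress PDGFB. All nuclei described here come from these transduced cells, and whether each nucleus carries both changes was not examined. OPCs that had not been transduced were not analysed here. The cells were grown in SATO medium and their nuclei were sequenced as 1 library, so no value below has a replicate and no difference was tested. The study lists 7 samples, and its 6 tumor samples, from brains at an early and a late stage, were not analysed here.

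SOX proteins bind DNA through a conserved HMG box, and they usually act together with partner factors. SoxB proteins keep neural progenitors undifferentiated, SoxC proteins act in progenitors and in young neurons, and SoxE proteins specify glia and, through *Sox10*, drive myelin genes. SoxD proteins lack a transactivation domain of their own and, in the oligodendrocyte lineage, *Sox5* and *Sox6* are known to restrain the activity of SoxE proteins and to delay differentiation.

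The start of the HMG box shows how the 4 groups relate. For each gene the first 60 bases of the box are given from GRCm39 on the coding strand, all within 1 exon. Capitals mark bases that differ from *Sox2* in SoxB, from *Sox4* in SoxC, from *Sox6* in SoxD and from *Sox10* in SoxE.
Sox2 (chr3:34704685-34704744, plus strand): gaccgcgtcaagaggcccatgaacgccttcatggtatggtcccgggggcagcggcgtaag
Sox3 (chrX:59936554-59936613, minus strand): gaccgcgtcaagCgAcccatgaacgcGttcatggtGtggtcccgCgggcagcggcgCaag
Sox4 (chr13:29136777-29136836, minus strand): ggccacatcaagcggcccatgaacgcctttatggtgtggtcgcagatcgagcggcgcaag
Sox11 (chr12:27392210-27392269, minus strand): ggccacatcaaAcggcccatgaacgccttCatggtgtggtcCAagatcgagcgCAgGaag
Sox5 (chr6:143786952-143787011, minus strand): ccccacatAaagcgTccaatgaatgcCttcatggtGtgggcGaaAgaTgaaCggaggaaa
Sox6 (chr7:115088950-115089009, minus strand): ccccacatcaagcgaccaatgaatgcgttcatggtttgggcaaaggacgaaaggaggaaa
Sox13 (chr1:133313256-133313315, minus strand): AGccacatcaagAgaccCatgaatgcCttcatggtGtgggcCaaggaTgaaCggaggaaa
Sox8 (chr17:25789149-25789208, minus strand): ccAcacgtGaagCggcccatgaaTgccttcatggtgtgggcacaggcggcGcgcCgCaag
Sox9 (chr11:112673717-112673776, plus strand): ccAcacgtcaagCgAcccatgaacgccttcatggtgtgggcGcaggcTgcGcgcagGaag
Sox10 (chr15:79047554-79047613, minus strand): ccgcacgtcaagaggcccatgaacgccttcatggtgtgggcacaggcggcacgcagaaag
Over the 237 bases of the whole box, the 8 pairs of genes of the same group were 81.4% to 89.5% identical, and the 37 pairs from different groups were 53.2% to 71.7% identical. The longest stretch that exons of a pair shared was 48 bases, between *Sox4* and *Sox11*. The next longest, of 44 bases, was between *Sox9* and *Sox10*, so that exon reads longer than these stretches tell the members apart. Introns were not compared.

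The cutoffs of 2000 to 8000 detected genes kept 8917 of the 10047 barcodes, with a median of 13771 unique molecular identifiers (UMIs) and 141138093 UMIs in all. They fell into 8 clusters, numbered 0 to 7 by size, of 182 to 1810 nuclei and with median depths of 10006 to 30276 UMIs. The OPC markers *Pdgfra*, *Cspg4*, *Olig1*, *Olig2*, *Lhfpl3*, *Ptprz1* and *Vcan* summed to 5281 CPM, the UMIs of a gene scaled to equal totals, with a lowest sum of 1802 CPM (cluster 1) and a highest of 7463 CPM (cluster 0). In cluster 1 all of them were at their lowest, but not equally so. *Pdgfra* was at 19.4, *Cspg4* at 12.2, *Vcan* at 25.0 and *Lhfpl3* at 123 CPM, against at least 144, 64.7, 183 and 1012 CPM elsewhere. *Ptprz1*, *Olig1* and *Olig2* were at 890, 520 and 212 CPM there, against at least 1205, 548 and 286 CPM elsewhere. The markers of most other cell types were low beside the OPC sums, at no more than 37.5 CPM for any of the next 6 lists in any cluster. The 6 neuronal markers summed to 17.6 CPM, the 5 microglial to 7.36, the 4 endothelial to 7.66, the 5 pericyte or fibroblast to 0.453, the 3 Schwann or neural crest to 0.709 and the 2 ependymal to 3.57. By cluster, the neuronal sum was 28.2, 32.1 and 37.5 CPM in clusters 1, 3 and 7 and 19.5 CPM or less elsewhere. In cluster 1 *Rbfox3* gave 15.8 CPM of it. The 6 astrocytic markers summed to 107 CPM, of which *S100b* gave most, and the 5 oligodendrocyte markers reported here to 3.46 CPM. *Xist* was at 959 CPM in cluster 1 and at 156 CPM or less elsewhere, and the Y-linked *Uty* reached 119 CPM in cluster 3, followed by cluster 0 with 42.3 CPM, so the clusters differ in sex-linked transcripts as well.

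All 10 members were counted, at levels between 5.02 and 2296 CPM. *Sox6*, on chromosome 7, was the highest at 2296 CPM (95% exact Poisson interval 2288 to 2304), and only 19 genes had more UMIs. It was followed by *Sox5* on chromosome 6 at 268 CPM (266 to 271), *Sox4* on chromosome 13 at 247 CPM (245 to 250) and *Sox11* on chromosome 12 at 229 CPM (226 to 231). *Sox2* on chromosome 3 at 206 CPM (204 to 208) and *Sox9* on chromosome 11 at 205 CPM (203 to 208) came next, with intervals that overlapped. Below these lay *Sox10* on chromosome 15 at 87.3 CPM (85.8 to 88.9), *Sox3* on the X chromosome at 36.1 CPM (35.1 to 37.1), *Sox8* on chromosome 17 at 19.3 CPM (18.6 to 20.1) and *Sox13* on chromosome 1 at 5.02 CPM (4.66 to 5.41). These intervals, like all intervals given here, cover counting error only.

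The order depended on how gene length was taken into account, because nuclear RNA holds introns. *Sox6* and *Sox5* span 569 and 954 kb, while the other members span 2.06 to 42.2 kb. Runs of 10 or more A, where the poly(dT) primer can bind inside a transcript, number 34 in *Sox6* and 68 in *Sox5*, and 0 to 6 in the span of any other member. Per kb of exon *Sox6* led at 142 CPM per kb, followed by *Sox2* at 100.1, *Sox4* at 51.6 and *Sox9* at 49.1 CPM per kb. Per kb of gene span *Sox2* led at 100.1 CPM per kb, *Sox6* came to 4.04 and *Sox5* to 0.281 CPM per kb. The order of *Sox2*, *Sox4*, *Sox9* and *Sox11* among themselves was the same on both scales, with *Sox11* at 27.5 CPM per kb on each. *Sox13* was the lowest on both, at 0.956 CPM per kb of exon and 0.119 CPM per kb of span.

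In SoxB, SoxD and SoxE a single gene led its group by far, while *Sox4* and *Sox11* shared SoxC nearly evenly. *Sox2*, the factor that maintains neural progenitors, gave 85.1% of the UMIs of *Sox2* and *Sox3* (95% exact binomial interval 84.7 to 85.5). With *Sox1* and *Sox21* counted in SoxB, *Sox2* came to 69.0% (68.6 to 69.4), *Sox21* to 17.1% and *Sox3* to 12.1%. *Sox4* gave 51.9% of the UMIs of *Sox4* and *Sox11* (51.6 to 52.3), and 65.2% per kb of span. With *Sox12* counted in SoxC, *Sox4* came to 47.6%, *Sox11* to 44.0% and *Sox12* to 8.39%. *Sox6* gave 89.4% of the SoxD UMIs (89.3 to 89.5), and 91.0% per kb of span or 88.6% per kb of exon. In SoxE, *Sox9*, which specifies glia, gave 65.8% (65.4 to 66.2), *Sox10* 28.0% (27.6 to 28.4) and *Sox8* 6.197% (5.97 to 6.43). Per kb of span *Sox10* was at 17.2% of SoxE and per kb of exon at 33.1%, below *Sox9* on both scales.

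**Figure D1:**
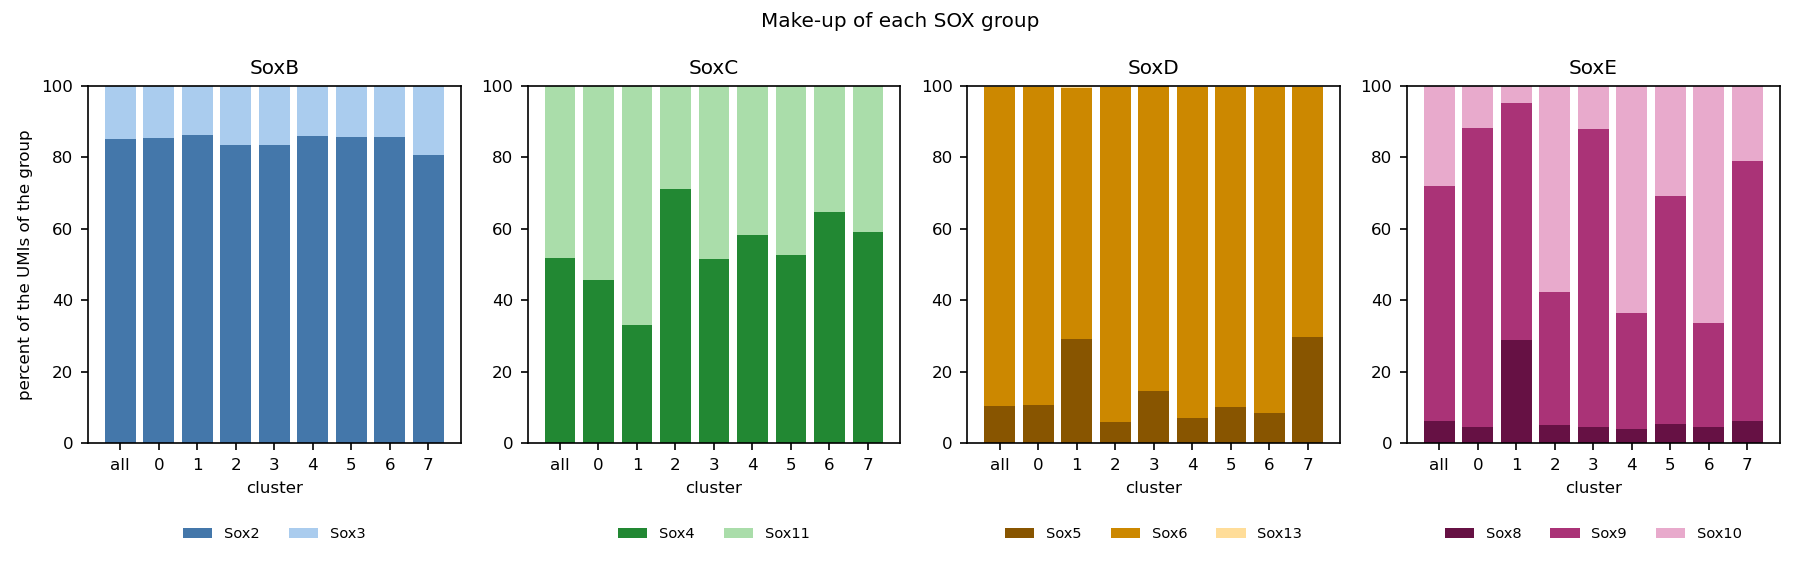
Share of each member in the UMIs of the chosen members of its group (percent, y axis) over all kept nuclei and in clusters 0 to 7 (x axis), with 1 panel for each group. *Sox2* stayed at 80.6% to 86.2% of the *Sox2* and *Sox3* pair in every cluster, while *Sox10* ran from 4.67% to 66.3% of SoxE and *Sox4* from 33.1% to 71.2% of the *Sox4* and *Sox11* pair.

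The share of *Sox2* against *Sox3* was nearly the same in all clusters, and the make-up of SoxE turned over. *Sox2* gave between 80.6% of the UMIs of the pair in cluster 7 and 86.2% in cluster 1. With *Sox1* and *Sox21* counted it gave between 60.9% in cluster 2 and 80.8% in cluster 0, where *Sox21* gave 25.7% and 3.84%. *Sox9* gave 83.9% of the SoxE UMIs in cluster 0 and 83.3% in cluster 3, against 37.0%, 32.5% and 29.3% in clusters 2, 4 and 6. *Sox10* gave 57.8%, 63.5% and 66.3% in clusters 2, 4 and 6, and 11.7% and 12.1% in clusters 0 and 3. Cluster 5, the deepest, lay between them, with 63.6% *Sox9* and 31.0% *Sox10*. In cluster 1, where the SoxE group was at its lowest sum of 126 CPM, *Sox8* gave 28.8% and *Sox10* 4.67%.

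The share of *Sox10* in SoxE fell to 16.5% in the 1954 nuclei whose mitochondrial genes took 5% of UMIs or less. These nuclei were 38.4% of cluster 0 and 44.6% of cluster 3, but 7.61% of cluster 2, 14.6% of cluster 4 and 6.405% of cluster 6. *Sox10* was in them at 148, 127 and 166 CPM in clusters 2, 4 and 6 and at 57.6 and 51.0 CPM in clusters 0 and 3. In clusters 1, 5 and 7 it was at 3.55, 77.1 and 82.1 CPM. These levels were above those of all kept nuclei of the same cluster in clusters 2, 6 and 7, and below them in clusters 0, 1, 3, 4 and 5. By the same filter *Sox4* came to 49.2% of SoxC, so that the order of *Sox4* and *Sox11* by UMIs turned.

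Across clusters, 8 of the 10 members had a highest level at least 2 times the lowest. Of the 14531 genes with at least 100 UMIs, 54.9% did so, and the median ratio of highest to lowest was 3.62 for the members and 2.14 for all these genes. *Sox4*, *Sox5*, *Sox6*, *Sox9* and *Sox10* were among the 3000 variable genes that shaped the clusters, so their differences between clusters are descriptions. Clustering without the 10 members also gave 8 clusters and 8 members at or above 2.

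**Figure D2:**
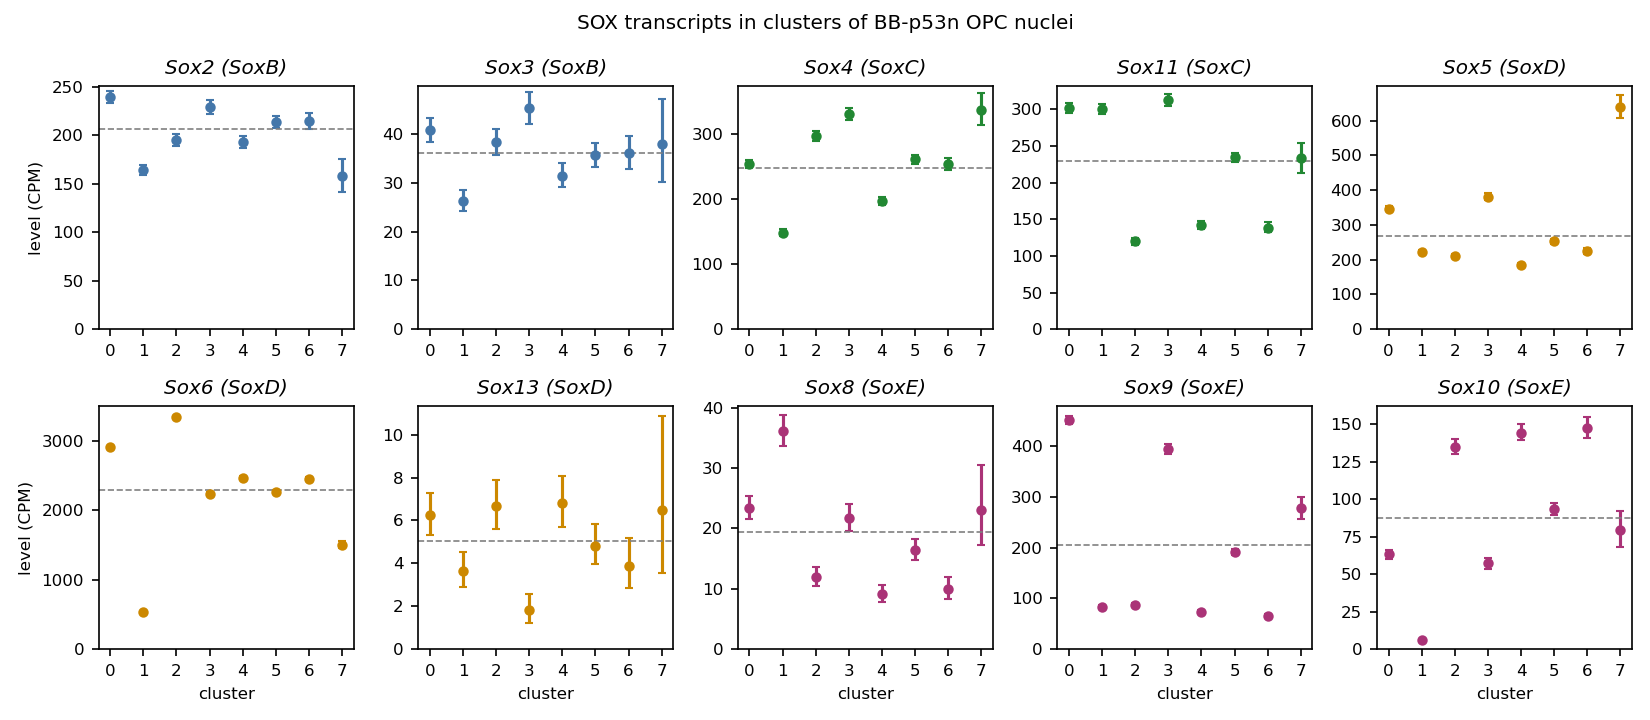
Level of each member in CPM (y axis, from 0, its own scale in each panel) in clusters 0 to 7 (x axis); bars are 95% exact Poisson intervals and the dashed line is the level over all kept nuclei. *Sox10* was at 5.87 CPM in cluster 1 and 57.2 to 148 CPM elsewhere, and *Sox9* was highest in clusters 0 and 3.

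*Sox2* and *Sox3* changed least of the members between clusters. *Sox2* was at 239, 164, 195, 229, 193, 214, 215 and 158 CPM in clusters 0 to 7, a ratio of 1.52, and 81.5% of the genes had a larger ratio. In the order of its levels 5 of 7 neighbouring clusters had overlapping intervals. *Sox3* was lowest in cluster 1 at 26.3 CPM and highest in cluster 3 at 45.2 CPM, a ratio of 1.72. *Sox3* lies on the X chromosome, and nuclei with an *Xist* UMI and none of 4 Y-linked genes had 27.8 CPM (25.8 to 29.8) of *Sox3*, against 40.9 CPM (38.9 to 43.1) in nuclei with a Y-linked UMI and no *Xist*. *Sox2*, which is autosomal, stood at 174 and 232 CPM in the same nuclei. *Xist* was at 959 CPM in cluster 1, where *Sox3* was lowest, and at 156 CPM or less elsewhere. The parts of sex-linked transcripts and of cluster in these differences were therefore not told apart.

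*Sox2* lies inside *Sox2ot*, a long noncoding RNA gene on the same strand, whose level was 2054 CPM. *Sox2ot* had 279 CPM in cluster 1 and reached 4297 CPM in cluster 0, a ratio of 15.4, while *Sox2* was at 164 and 239 CPM in these clusters. Reads in the shared stretch cannot be told apart by position or strand, and their part in the level of *Sox2* was not tested. *Sox21*, a SoxB gene outside the 10 members that opposes *Sox2*, was at 51.1 CPM and was lowest in cluster 0 with 11.4 CPM and highest in cluster 6 with 84.8 CPM.

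In SoxC the pair of genes had different patterns. *Sox4* was at 254, 149, 297, 331, 197, 261, 254 and 338 CPM in clusters 0 to 7, and it was lowest in cluster 1. *Sox11* was at 302, 300.4, 120, 313, 142, 235, 139 and 233 CPM, and it was lowest in clusters 2, 4 and 6. The intervals of *Sox11* in clusters 0, 1 and 3 overlapped, and all lay above those of the other clusters. Chromosome 12, which holds *Sox11*, moved with it. Its share of UMIs was 1.44, 1.23 and 1.14 times that of the other nuclei in clusters 1, 3 and 0, and 0.698, 0.715 and 0.715 times in clusters 2, 4 and 6. For *Sox11* itself these ratios were 1.39, 1.44 and 1.42, and 0.486, 0.583 and 0.585. The part of the chromosome in the level of *Sox11* was not tested.

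*Sox4* was the member that differed most with the cell cycle. Phases were called from S and G2/M gene scores, and *Sox4* was at 325 CPM in G1 nuclei, 249 CPM in S and 208 CPM in G2/M, a ratio of 1.56. The median depths of these nuclei were 11780, 12670.5 and 16473.5 UMIs. *Sox4* was the 1 member of 10 whose highest phase was at least 1.5 times its lowest, against 17.4% of the 14531 genes. In all 7 clusters with at least 50 nuclei in both phases the level of *Sox4* in G1 was above that in G2/M, by 1.16 to 1.77 times. For *Sox11* the same ratio ran from 0.885 to 1.22, and for *Sox2* from 0.794 to 1.04. Cluster 4, where *Sox4* was at 197 CPM, was 93.7% G2/M nuclei, and cluster 2, where it was at 297 CPM, was 66.6% G1 nuclei.

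SoxD consisted mainly of *Sox6*, whose level was lowest in cluster 1. *Sox6* was at 2911, 535, 3340, 2240, 2469, 2268, 2456 and 1504 CPM in clusters 0 to 7. In cluster 1 it was at 0.204 times the level of all other nuclei, and chromosome 7 as a whole was at 1.12 times there. *Sox5* had another order, with 347, 222, 211, 381, 184, 252, 226 and 640.0 CPM, and was highest in cluster 7, the smallest, at 2.44 times the level of the other nuclei. The astrocytic markers summed to 324 CPM in cluster 7, 303 CPM of which came from *S100b*, and their part in the level of *Sox5* was not tested. Its ratio of highest to lowest was 3.48, and 6.44 when the members were left out of the clustering. It was 1.72 when only the nuclei of low mitochondrial share (5% or less) were clustered anew, which gave 5 other clusters. In the nuclei of low mitochondrial share of the main clusters, *Sox5* still ran from 207 CPM in cluster 4 to 656 CPM in the 57 nuclei of cluster 7. *Sox13* had 709 UMIs in all and lay between 1.81 CPM (cluster 3) and 6.79 CPM (cluster 4), with wide intervals. Several genes overlap *Sox5* and *Sox6* on the opposite strand. The highest of them, *1110004F10Rik* at *Sox6*, was at 194 CPM.

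SoxE held the members with the largest differences. *Sox9* was at 452, 83.6, 86.5, 395, 73.7, 192, 65.1 and 278 CPM in clusters 0 to 7, a ratio of 6.93. *Sox10*, the factor that turns on myelin genes, was at 63.2, 5.87, 135, 57.2, 144, 93.5, 148 and 79.5 CPM, a ratio of 25.2, and 3.52% of the genes had a larger one. In the order of its levels, intervals overlapped between clusters 6 and 4, 4 and 2, 5 and 7, and 0 and 3. For *Sox9* this held only for clusters 2 and 1. The order of *Sox10* was thus nearly the reverse of that of *Sox9* outside cluster 1, and in cluster 1 both were low. *Sox8* was at 23.4, 36.2, 11.99, 21.7, 9.14, 16.4, 10.0 and 23.1 CPM, and, unlike *Sox9* and *Sox10*, it was highest in cluster 1. Chromosome 15, which holds *Sox10*, had 0.741 times the share of UMIs of the other nuclei in cluster 1, where *Sox10* was at 0.0573 times. Chromosome 11, with *Sox9*, was at 0.933 times in cluster 0, where *Sox9* was at 3.00 times. In cluster 3 it was at 1.20 times, where *Sox9* was at 2.19 times. The part of the chromosome in these levels was not tested.

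The genes that SOX factors are known to act with or upon were taken as a list for each group. Of 11 genes of the SoxE list, 9 had a highest cluster at least 2 times the lowest, against 54.9% of all genes, with a median ratio of 10.1. The neuregulin receptor gene *Erbb3*, a *Sox10* target, was at 115, 130.0 and 80.1 CPM in clusters 2, 4 and 6, where *Sox10* was high, and at 19.6, 3.34 and 7.28 CPM in clusters 0, 1 and 3. *Myrf* and *Mbp*, which act late in oligodendrocyte differentiation, stayed at or below 9.62 and 5.46 CPM in every cluster. These highest levels were in clusters 2 and 6, where *Sox10* was high. Both genes were lowest in cluster 1, at 0.948 and 0.0903 CPM. The oligodendrocyte factor gene *Nkx2-2* was instead at 57.2 and 54.4 CPM in clusters 0 and 3, where *Sox9* was high, and at 20.9 CPM or less elsewhere. *Olig1* and *Olig2* had ratios of 1.38 and 1.496.

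Of 6 genes of the SoxB list 5 reached a ratio of 2, against 54.9% of the genes with at least 100 UMIs. Among these 5 genes, *Nes*, an intermediate filament gene of progenitors, was at 580.0 CPM in cluster 1 and 166 to 332 CPM elsewhere. Of 5 genes of the SoxC list 2 reached a ratio of 2, against the same 54.9%. *Tead2* was at 67.1 CPM in cluster 1, 35.6 in cluster 7 and 10.6 CPM or less elsewhere, and *Dcx*, a gene of migrating young neurons, at 98.96 and 70.6 CPM in clusters 3 and 0. Of 4 genes of the SoxD list, which are 3 cartilage matrix genes and the co-repressor gene *Ctbp2*, 2 had at least 100 UMIs. Of these, *Acan* had a ratio of 38.7, from 0.813 to 31.4 CPM, and *Ctbp2* 1.77.

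In nuclei thinned to 5000 UMIs each, 96.3% had a *Sox6* UMI, 65.9% *Sox5*, 64.4% *Sox4*, 63.0% *Sox11*, 60.9% *Sox2* and 50.03% *Sox9*. Lower shares were found for *Sox10* with 28.9%, *Sox3* with 16.5%, *Sox8* with 9.28% and *Sox13* with 2.28%. Without thinning the shares were 98.8%, 87.9%, 88.6%, 89.0%, 87.3%, 72.2%, 55.2%, 39.1%, 23.7% and 6.92% in the same order. No cells known to be silent for these genes were in the library, so the part of free RNA in these shares was not measured. The lowest share of a well counted member in a cluster was that of *Sox10* in cluster 1, with 2.11% of nuclei after thinning and 5.48% without it. The median depth there was 11623 UMIs, against 13771 in the library. This share can hold free RNA as well as RNA of the nuclei themselves. Free RNA of a gene depends on the level of that gene, so the share is no gauge for the other members. *Sox13*, with its few UMIs, ran from 1.07% to 3.10% over the clusters after thinning.

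A thinned nucleus had UMIs of a median of 5 members, with a range of 0 to 9, and 42.3% of nuclei had a UMI of all 4 groups. Nuclei of clusters 0 and 3 most often had 5 or more, with 70.8% and 73.9%, and those of cluster 1 least often, with 30.1%. Both SoxC genes were found in 40.5% of nuclei and both SoxB genes in 10.2%. In SoxE, 51.7% of nuclei had 1 of the 3 genes, 30.7% had none, 16.4% had 2 and 1.27% had all 3.

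Counts per nucleus varied beyond counting error to unlike degrees among the members. In thinned nuclei the variance over the mean was 5.18 for *Sox6*, 2.44 for *Sox9*, 1.59 for *Sox5*, 1.54 for *Sox4* and 1.39 for *Sox11*, against a median of 1.05 over genes found in at least 5% of nuclei. Within clusters it was 3.13 for *Sox6* and 1.78 for *Sox9*, and 1.10 for *Sox10*. *Sox2* was at 1.15 over all nuclei and 1.13 within clusters.

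*Sox9* and *Sox10* were found together slightly less often than independent genes would be. Of the 8760 thinned nuclei, 36.6% had *Sox9* UMIs only (35.6 to 37.6), 15.4% *Sox10* only (14.7 to 16.2), 13.4% both (12.7 to 14.2) and 34.5% neither (33.5 to 35.6). If the pair were independent 14.4% would have both, and the odds ratio was 0.822 over all nuclei and 0.894 within clusters. In clusters 0 and 3, 60.1% and 59.8% of nuclei had *Sox9* only, and 20.7% and 18.5% had both. In clusters 2, 4 and 6, 31.9%, 35.0% and 34.4% had *Sox10* only and 14.7%, 12.4% and 12.6% had both. The odds ratio was 0.711 to 1.07 in the 8 clusters.

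**Figure D3:**
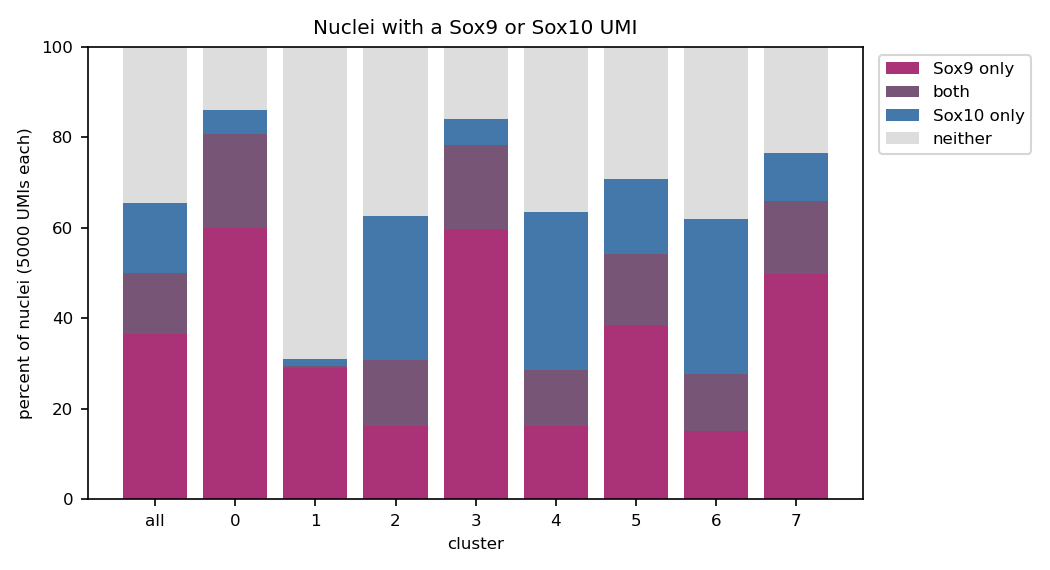
Percent of nuclei (y axis), each thinned to 5000 UMIs, with UMIs of *Sox9* only, of both *Sox9* and *Sox10*, of *Sox10* only or of neither, over all nuclei and in clusters 0 to 7 (x axis). *Sox9* alone was the most frequent state in clusters 0, 3, 5 and 7, and neither gene was found in 69.0% of the nuclei of cluster 1.

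Of the 45 pairs of members, 44 were expected in at least 20 nuclei together and were compared by their co-detection odds ratio. It was at least 1.5 for 6 of them, against 1.23% of 42131610 pairs of the 9180 genes found in at least 5% of nuclei. *Sox6* was in 5 of these 6 pairs. Its odds ratio was 11.2 with *Sox10*, 3.22 with *Sox9*, 2.18 with *Sox4*, 1.86 with *Sox3* and 1.51 with *Sox5*, and *Sox11* with *Sox9* had 1.504. With another random draw *Sox6* with *Sox3* came to 1.14, and in nuclei with at most 5% mitochondrial UMIs *Sox6* had 4.60 with *Sox10*, 9.86 with *Sox9* and 4.50 with *Sox5*. Only 327 of the thinned nuclei lacked *Sox6*. Of these 3.67% had *Sox10*, against 29.8% of nuclei with *Sox6*, and in cluster 1, where both genes were low, 82.3% of nuclei had *Sox6*.

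The odds ratio was at most 0.667 for 3 of the 44 pairs, against 0.934% of all pairs. These were *Sox11* with *Sox6* at 0.486, *Sox11* with *Sox10* at 0.661 and *Sox6* with *Sox8* at 0.664.

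Within clusters most of this was no longer seen. *Sox4*, *Sox5*, *Sox6*, *Sox9* and *Sox10* helped to shape these clusters. Odds ratios within clusters made without the members were not computed. Of the 44 pairs 1 was at least 1.5, *Sox6* with *Sox9* at 1.59, against 0.713% of all pairs, and 0 were at most 0.667, against 0.421%. *Sox6* with *Sox10* came to 1.24 and *Sox11* with *Sox6* to 0.844. The median over member pairs was 1.12 over all nuclei and 1.07 within clusters, and for all pairs it was 1.00 on both counts. Among pairs within 1 group, *Sox2* with *Sox3* had an odds ratio of 1.05 and *Sox4* with *Sox11* of 0.988. Without thinning 29 pairs reached 1.5.

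**Figure D4:**
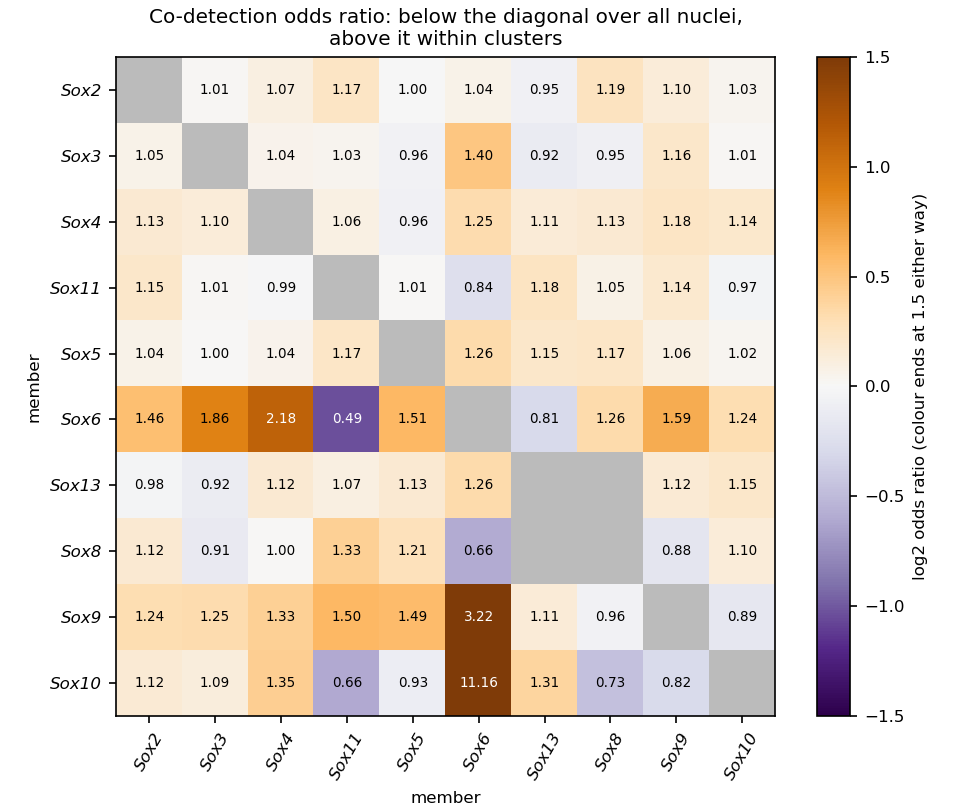
Co-detection odds ratio of each pair of members in nuclei thinned to 5000 UMIs, over all nuclei below the diagonal and within clusters above it; colour is the log2 odds ratio and grey marks the diagonal and a pair that was too rare. Over all nuclei the row and column of *Sox6* hold most of the strong values, up to 11.2 with *Sox10*, and above the diagonal the highest is 1.59 for *Sox6* with *Sox9*.

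Several genes of the target lists were found with a member over all nuclei and much less so within clusters. The pairs named are examples, and no share over all pairs of a member and a listed gene was taken. *Sox10* was found with *Pdgfra* at an odds ratio of 2.47 and with *Erbb3* at 2.23 over all nuclei, and at 1.06 and 1.08 within clusters. *Sox9* was found with *Nkx2-2* at 4.59 and with *Dcx*, which is of the SoxC list, at 4.48, and at 1.49 and 1.44 within clusters. With the SoxC members *Sox4* and *Sox11*, *Dcx* had 1.34 and 1.60, and 1.08 and 1.09 within clusters. Of the nuclei with a *Dcx* UMI 78.8% had *Sox9*, against 45.3% of those without.

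The genes most like a member were ranked by Pearson's r of log counts over the 8760 thinned nuclei, which share library and depth, and named where r reached 0.2. *Sox6* was most like *Cntn1* with 0.746, *Lhfpl3* with 0.726 and *Dcc* with 0.716. *Sox9* was most like *Brinp3* with 0.470, *Sox2ot* with 0.376 and *Gap43* with 0.296. *Sox10* was most like *Cntn1* with 0.291, *Dcc* with 0.273 and *Ppp2r2b* with 0.266, and *Sox5* was most like *Brinp3* with 0.228, *Ctnnd2* with 0.223 and *Lsamp* with 0.217. No gene reached 0.2 with the other 6 members. *Cntn1* and *Dcc* were thus named for both *Sox6* and *Sox10*, and *Brinp3* for both *Sox5* and *Sox9*.

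Of the 12 further SOX family genes and transcripts, *Sox12* of SoxC was at 43.6 CPM and *Sox1* of SoxB at 5.34 CPM. *Sox12* varied less between clusters than any of the 10 members, from 38.4 to 49.9 CPM. *Sox7*, *Sox15*, *Sox18* and *Sox30* had 4 to 15 UMIs each, and *Sox1ot* 51. *Sox14*, *Sox17* and *Sry* had 0 of 141138093 UMIs, which with 3 counts as the floor allows a level of up to 0.0213 CPM.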

How the data were processed

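Cultured BB-p53n OPCs gave 1 snRNA-seq library (10x 3' chemistry). Reads were aligned by the authors to mm39 with Cell Ranger 8.0.1, which also called the nuclei, and the deposited values are raw UMI counts that no filter on detected genes or scaling had touched. Gene positions and lengths came from GENCODE on GRCm39, where 33185 of the 33696 genes matched.

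From the deposited counts, nuclei with 2000 to 8000 genes were kept and clustered with Seurat 5.3.0 in R 4.3.3 by the settings of the methods (scale factor 1000, 3000 variable genes with total counts regressed out, 20 principal components, 200 neighbors, resolution 1). These cutoffs kept 8917 nuclei. The study lists fewer, as many as the 1954 with at most 5% mitochondrial UMIs, so the nuclei and clusters here differ from its own. CPM are summed UMIs scaled to equal totals, with exact Poisson intervals, and shares have exact binomial (Clopper-Pearson) intervals. Detection was compared after random thinning to 5000 UMIs, which left out 157 nuclei. Odds ratios within clusters are Mantel-Haenszel estimates. Phases used the 43 S and 54 G2/M genes of Seurat. Doublets were not removed, since the automatic threshold of Scrublet in scanpy 1.11.5 had not worked. Nuclei of 1 library are not replicates, so nothing was tested. The scripts were first tested on simulated data with known ratios. The members, and the lists of partners, targets and markers, were chosen with earlier results of these data known. The genes named are all members, the rest of the family, these lists, overlapping genes, sex-linked genes and the 3 genes most like each member, apart from 1 gene that is not reported here.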

Additional observations from a re-analysis of the deposited data

How the results depend on the processing

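The count of members with a highest cluster at least 2 times the lowest was 8, and 7 to 10 under 7 alternatives (no member in the clustering, resolution 0.4, 20 neighbors, a clustering of only the nuclei with 5% mitochondrial UMIs or less, nuclei weighted equally, a Scrublet filter that took out the top 8% of scores, and only members with at least 1000 UMIs). With nuclei weighted equally, *Sox2* came to 84.6% of SoxB, *Sox4* to 51.2% of SoxC, *Sox6* to 88.7% of SoxD and *Sox10* to 24.1% of SoxE, against 85.1%, 51.9%, 89.4% and 28.0%. With at most 5% mitochondrial UMIs the shares of *Sox4*, *Sox6* and *Sox10* were 49.2%, 88.6% and 16.5%. Pairs at an odds ratio of at least 1.5 numbered 6, with 29 without thinning and 1 within clusters. Thinning to 3000 UMIs gave 4, the mitochondrial filter 9, the Scrublet filter 7 and another random draw 7. Counting *Sox1* and *Sox21* in SoxB put *Sox2* at 69.0%, and counting *Sox12* in SoxC put *Sox4* at 47.6%, both chosen after seeing the data. All deposited barcodes and 3000 to 7000 genes moved no share by more than its counting interval. No paired analysis was possible because the report rests on 1 library. Depth limits *Sox13*, with 709 UMIs, most.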

Other observations

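Barcodes outside the cutoffs also held the members. Below 2000 genes *Sox6* was at 2257 CPM, *Sox2* at 142 and *Sox10* at 111 CPM, and above 8000 genes at 2122, 234 and 97.3 CPM, against 2296, 206 and 87.3 CPM in the kept nuclei. *Sox4* was at 197 and 265 CPM below and above, against 247 CPM. *Sox3* was at 22.2 and 39.5 CPM, against 36.1 CPM, and *Sox8* at 12.5 and 19.3 CPM, against 19.3 CPM.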
